A study of Mus musculus with 12 samples.

Results

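The transcripts described here are those of 10 genes of DNA methylation and of Polycomb repressive complex 2 (PRC2), followed in donor OTII cells over the first days of priming: Dnmt1, Dnmt3a, Dnmt3b, Tet1, Tet2, Tet3, Ezh1, Ezh2, Suz12 and Eed. They were taken by symbol from the 40840 genes listed in the count files, and all 10 passed the filter on low counts. OTII cells are CD4+ T cells whose receptor comes from a transgene and recognizes a peptide of ovalbumin (OVA). They were transferred into WT (B6) mice or into Il6-/- mice, which cannot make IL-6. The recipients were sensitized intranasally with OVA and a house dust mite extract of high endotoxin content (HDMLPS), and the donor cells were sorted from the mediastinal lymph nodes (mLN) on Day 3 or Day 5. The 4 groups were WT Day 3, Il6-/- Day 3, WT Day 5 and Il6-/- Day 5, with 3 replicates in each and 12 libraries in all. The donor cells carried an intact Il6 gene in every group, every recipient had received the same sensitization, and no group without HDMLPS was analysed here. The age of the mice is not given in the sources used here. The labels name blood as the tissue and leave out the endotoxin, and the series counts its days from 1 where the paper counts from 0. The paper's account was followed for the tissue and the treatment, and the days are those of the labels.

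DNA methylation at CpG sites is copied onto the new strand at each replication by DNMT1, which UHRF1 brings to hemimethylated DNA. DNMT3A and DNMT3B methylate DNA that carried no mark before, and the TET enzymes oxidize 5-methylcytosine, a step that can lead to its removal. PRC2 methylates histone H3 at lysine 27 (H3K27) through either EZH2 or EZH1, its alternative catalytic subunits, and needs SUZ12 and EED to be active. EZH2 is known from dividing cells and EZH1 also from resting ones, and both modifications are known to hold cytokine and lineage genes silent in CD4+ T cells.

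Each library had from 16125947 to 26111657 reads assigned to genes. Counts were scaled to the size of each library (TMM) and are given as CPM, the reads of a gene relative to the scaled size of its library, with the mean ± SD of 3 replicates where groups are summarized. Group differences are log2 fold changes (log2FC) with their standard error (SE) from edgeR's quasi-likelihood F test, and the FDR (Benjamini-Hochberg) was taken over all 13570 genes tested. Nothing in the sources used here says whether replicates came from separate mice or pools, so the p values measure the spread between these samples, which may be technical. Genes held 60.2% to 62.2% of reads in the Day 3 libraries and 52.5% to 56.7% in the Day 5 libraries, and the role of that difference in the day comparisons was not tested. The cells carried the markers of CD4+ T cells, with a summed level of 8 markers between 5421 and 9883 CPM. Markers of other cells were lower but not all near 0. Clec9a and Klra8 had no read and Cd8a reached 1.70 CPM, whereas in their highest libraries Klrb1c reached 36.5, Lyz2 28.3, Sftpc 14.1, Csf1r 10.2 and Cd79b 7.38 CPM. The 7 markers of lung epithelium summed to at most 21.5 CPM. Of the other markers, Ighm lay between 426 and 676 CPM and Cd8b1 between 56.3 and 84.2 CPM in every group. The 9 myeloid markers summed to between 9.23 and 19.9 CPM on Day 3 and between 17.1 and 47.0 CPM on Day 5, and the 6 CD8 and NK markers to between 62.4 and 74.4 CPM in the WT Day 3 libraries and between 83.6 and 114 CPM in the others. Their part in the results was not tested. Il6 itself had 0 to 5 reads per library, and because the donor cells were not deficient these reads do not check the labels.

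Nearly all of the 10 genes changed between Day 3 and Day 5. In WT recipients all 10 passed an FDR of 0.05, 5 lower on Day 5 (Dnmt1, Dnmt3b, Ezh2, Suz12 and Eed) and 5 higher (Dnmt3a, Tet1, Tet2, Tet3 and Ezh1). In the same comparison 56.7% of all genes tested passed, 29.5% as higher and 27.1% as lower. In Il6-/- recipients 9 of the 10 passed in the same directions, against 60.5% of all genes (30.4% higher and 30.1% lower), and the exception was Dnmt3a. With a 2-fold change required as well, 2 of the 10 genes passed in WT (22.1% of all genes) and 5 in Il6-/- recipients (25.9%). The median log2FC of the 10 genes was −0.0978 in WT and −0.480 in Il6-/- recipients, beside 0.0908 and 0.0872 over all genes. Between recipients, differences were smaller. On Day 3, 3 of the 10 genes passed, Dnmt3a and Suz12 higher and Ezh1 lower in Il6-/-, against 13.7% of all genes (7.52% higher and 6.19% lower), and none of the 3 reached 2-fold (2.74%). On Day 5 none of the 10 passed (edgeR), against 4.61% of all genes (1.27% higher, 3.35% lower and 1.14% with 2-fold required). Of the 10, 2 had an unadjusted p under 0.05 on that day, Dnmt1 and Tet1, and neither DESeq2 nor limma-voom called any of the 10.

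The libraries were also compared without a test, by whether groups overlapped. Every one of the 10 genes had all its Day 3 libraries on one side of all its Day 5 libraries in WT recipients, which was so for 63.3% of all genes, and 9 of the 10 did in Il6-/- recipients (65.8%). Between the genotypes, 6 of the 10 genes did not overlap on Day 3 (36.2% of all genes), more than the 3 that passed the test, and 1 of the 10, Tet1, on Day 5 (19.6%). In these bulk libraries, a lower share of cells that express a gene and less of its RNA per cell cannot be told apart.

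**Figure D1:**
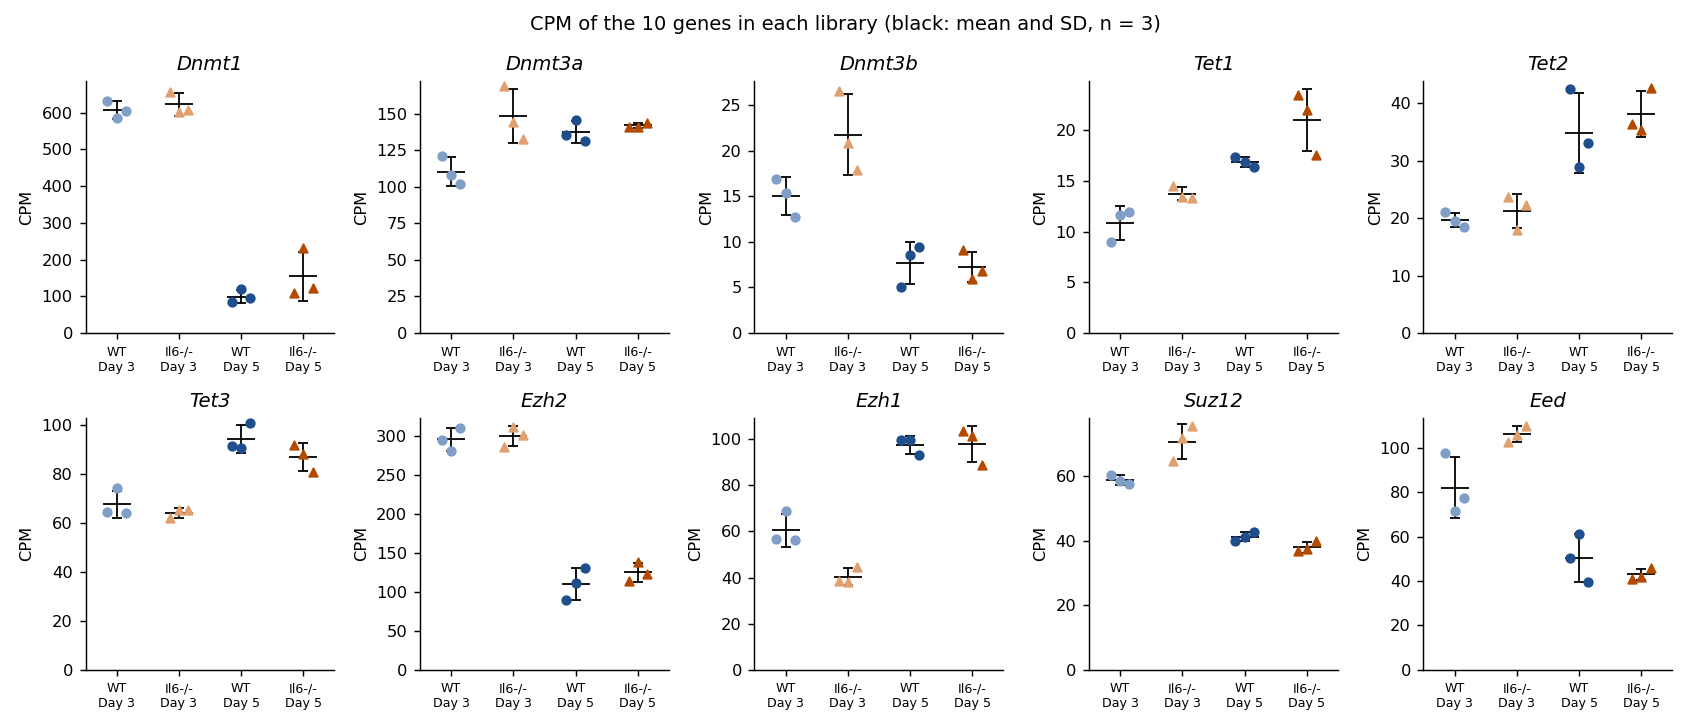
CPM of each of the 10 genes (vertical axes, each from 0) in the 12 libraries, by recipient genotype and day, with circles for WT, triangles for Il6-/-, and black bars for the mean ± SD of 3 replicates. Dnmt1, Dnmt3b, Ezh2, Suz12 and Eed are lower on Day 5 and the Tet genes and Ezh1 higher, and the Ezh1 libraries of Il6-/- recipients lie below those of WT on Day 3 and among them on Day 5.

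Levels of different genes were compared as CPM per kilobase (kb) of annotated exon. The length was that of all annotated exons of a gene together, not of the transcripts expressed. The order and the ratios between genes therefore depend on the annotation as well. On Day 3 Dnmt1 led the order in WT recipients with 71.5 CPM per kb, at the 95.5th percentile of the 12677 genes tested that have an annotated length. Ezh2 followed with 40.6 and Eed with 21.3 CPM per kb, and no library of one of these 3 genes reached those of the next. Suz12 (7.79), Ezh1 (6.54), Dnmt3a (6.48) and Tet3 (4.05) made up the middle of the order, in which only Ezh1 and Dnmt3a overlapped. Dnmt3b (2.42), Tet2 (1.11) and Tet1 (0.702 CPM per kb) came last. In Il6-/- recipients the top and the bottom of the order on Day 3 were the same, but Dnmt3a (8.73 CPM per kb) stood above Ezh1 (4.37) and its libraries did not overlap with those of Ezh1. By Day 5 the top of the order had closed up. In WT recipients Ezh2 (15.2 CPM per kb), Eed (13.1), Dnmt1 (11.6) and Ezh1 (10.5) followed each other with libraries that overlapped from each gene to the next. In Il6-/- recipients Dnmt1 (18.2) and Ezh2 (17.2) overlapped, as did Eed (11.2) and Ezh1 (10.6). Tet1 and Dnmt3b overlapped at the bottom in both genotypes on Day 5.

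Of the DNA methyltransferases, the maintenance enzyme Dnmt1 (GRCm39 chromosome 9, 20817945 to 20871184, minus strand) changed most. In WT recipients it was at 632.5, 584.5 and 605.3 CPM on Day 3 and at 83.3, 119 and 94.8 CPM on Day 5 (replicates 1 to 3). The Il6-/- libraries had 657, 601 and 608 CPM on Day 3 and 109, 231 and 123.5 CPM on Day 5. Every Day 5 library lay far below every Day 3 library, and replicate 2 of the Il6-/- Day 5 group stood above the other Day 5 libraries. The level was 6.14-fold lower on Day 5 in WT recipients (log2FC −2.62, SE 0.22, FDR = 1.3e-07) and 4.04-fold lower in Il6-/- recipients (log2FC −2.01, SE 0.21, FDR = 9.8e-07). Without replicate 2 of the Il6-/- Day 5 group, the latter was −2.41. In exact two-sided permutation tests of log2 CPM, 3 libraries against 3, both day differences gave p = 0.1, the smallest value that the design allows.

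Between the genotypes, Dnmt1 did not differ on Day 3 beyond the spread of the replicates (log2FC 0.03, 95% interval −0.39 to 0.46, FDR = 0.94). On Day 5 the WT mean was 99.0 ± 18.0 CPM and the Il6-/- mean 154 ± 66.5 CPM (SD, n = 3), with libraries that overlapped. The difference (log2FC 0.64, SE 0.21) missed the threshold at an FDR of 0.090. No label pairs the libraries, but same-numbered Day 5 libraries deviated together in these data. With the replicate number as a block the difference passed (log2FC 0.58, FDR = 0.0014, edgeR), as it did without a filter on low counts. Because that block was chosen from the same values that it tests, it gives no independent support. The fit without the filter used the same overlapping libraries and gives no independent support either. The difference also rested on single libraries. It was 0.26 (FDR = 0.34) without replicate 2 and 0.84 (FDR = 0.014) without replicate 1 of the Il6-/- Day 5 group. The exact permutation test gave p = 0.2.

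The de novo methyltransferase Dnmt3a (chromosome 12, 3856007 to 3964443, plus strand) was the one gene of the 10 whose fitted change between the days differed in sign between the recipients, although the test of that difference missed the threshold. On Day 3 it was at 121, 108 and 102 CPM in WT and at 169, 144 and 133 CPM in Il6-/- recipients, and every Il6-/- library was higher. By Day 5 the values were 135, 146 and 131 CPM in WT and at 141, 141 and 144 CPM in Il6-/- recipients, and the libraries overlapped. Dnmt3a was 1.35-fold higher in Il6-/- on Day 3 (log2FC 0.43, SE 0.09, FDR = 0.0070), while on Day 5 the log2FC was 0.05 (95% interval −0.15 to 0.25, FDR = 0.84). It rose from Day 3 to Day 5 in WT recipients (log2FC 0.31, SE 0.09, FDR = 0.0097), a call that was lost without replicate 3 of the WT Day 3 group (FDR = 0.057). In Il6-/- recipients the log2FC between the days was −0.07 (95% interval −0.26 to 0.13, FDR = 0.56). The interaction of genotype and day, which tests whether the recipient difference changed between the days, was −0.38 (SE 0.13, FDR = 0.12). With the replicate number as a block within each day, the interaction was −0.38 with an FDR of 0.017 (edgeR). That pairing was taken from these data and not from a label, and only the Day 5 libraries deviated together by number.

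Dnmt3b, the other de novo enzyme (chromosome 2, 153490861 to 153529650, plus strand), had far fewer reads, 100 to 503 per library. It was at 16.9, 15.3 and 12.8 CPM in WT and at 26.6, 20.8 and 17.9 CPM in Il6-/- recipients on Day 3. The Day 5 values were 5.09, 8.52 and 9.40 CPM in WT and 9.05, 5.92 and 6.77 CPM in Il6-/-. The Il6-/- libraries were higher on Day 3, without overlap, and mixed with those of WT on Day 5. Dnmt3b was 1.96-fold lower on Day 5 in WT (log2FC −0.97, SE 0.23, FDR = 0.0020) and lower still in Il6-/- recipients (log2FC −1.58, SE 0.23, FDR = 2.6e-05). Its Day 3 difference between recipients (log2FC 0.53, SE 0.22, FDR = 0.13) and its interaction (−0.61, SE 0.32, FDR = 0.30) missed the threshold. The ratio of Dnmt3a to Dnmt3b per kb went from 2.69 ± 0.178 to 6.99 ± 2.39 in WT and from 2.51 ± 0.191 to 7.36 ± 1.54 in Il6-/- recipients (SD, n = 3). The ratio of Dnmt1 to Dnmt3a fell over the same days from 11.1 ± 0.779 to 1.44 ± 0.200 in WT and from 8.44 ± 0.6996 to 2.18 ± 0.952 in Il6-/- recipients.

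All 3 Tet genes rose from Day 3 to Day 5 in both genotypes, each by less than 2-fold. Tet2 (chromosome 3, 133169436 to 133250900, minus strand), an enzyme often mutated in blood cell malignancies, rose most. It was at 21.0, 19.5 and 18.5 CPM in WT and at 23.6, 18.0 and 22.3 CPM in Il6-/- recipients on Day 3, and at 42.55, 28.8 and 33.15 CPM (WT) and 36.4, 35.3 and 42.6 CPM (Il6-/-) on Day 5. Every Day 5 library was above every Day 3 library and the genotypes overlapped on both days. The rise was 1.77-fold in WT (log2FC 0.82, SE 0.14, FDR = 0.00020) and 1.79-fold in Il6-/- recipients (log2FC 0.84, SE 0.14, FDR = 0.00014).

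Tet3 (chromosome 6, 83339355 to 83436066, minus strand) was the Tet gene with the highest level. It rose from 67.5 ± 5.61 to 94.2 ± 5.80 CPM in WT (log2FC 0.48, SE 0.08, FDR = 0.00018) and from 64.1 ± 1.99 to 86.8 ± 5.64 CPM in Il6-/- recipients (log2FC 0.44, SE 0.08, FDR = 0.00037). Its Day 3 libraries spanned 61.8 to 74.0 CPM and its Day 5 libraries 80.6 to 101 CPM. Of the exon bases of Tet3, 9.06% also belong to Bola3 on the other strand. The reads were counted without strand, so reads of that stretch cannot be assigned. Bola3 itself moved the other way, from a mean of 83.5 to 61.6 CPM in WT and from 93.3 to 56.5 CPM in Il6-/- recipients.

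Tet1 (chromosome 10, 62640349 to 62744775, minus strand), known mainly from embryonic and germ cells, had the lowest level. It was at 8.93, 11.7 and 11.9 CPM in WT and at 14.5, 13.4 and 13.3 CPM in Il6-/- recipients on Day 3. By Day 5 Tet1 had reached 17.4, 16.8 and 16.4 CPM in WT and 23.45, 22.03 and 17.5 CPM in Il6-/-. The Il6-/- libraries were higher on both days without overlap, the only gene of the 10 for which this was so. The rise over the days was 1.56-fold in WT (log2FC 0.64, SE 0.14, FDR = 0.0015) and 1.53-fold in Il6-/- recipients (log2FC 0.61, SE 0.14, FDR = 0.0017). The recipient difference was 0.34 on Day 3 (SE 0.15, FDR = 0.14) and 0.32 on Day 5 (SE 0.14, FDR = 0.23), and missed the threshold on both days.

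**Figure D2:**
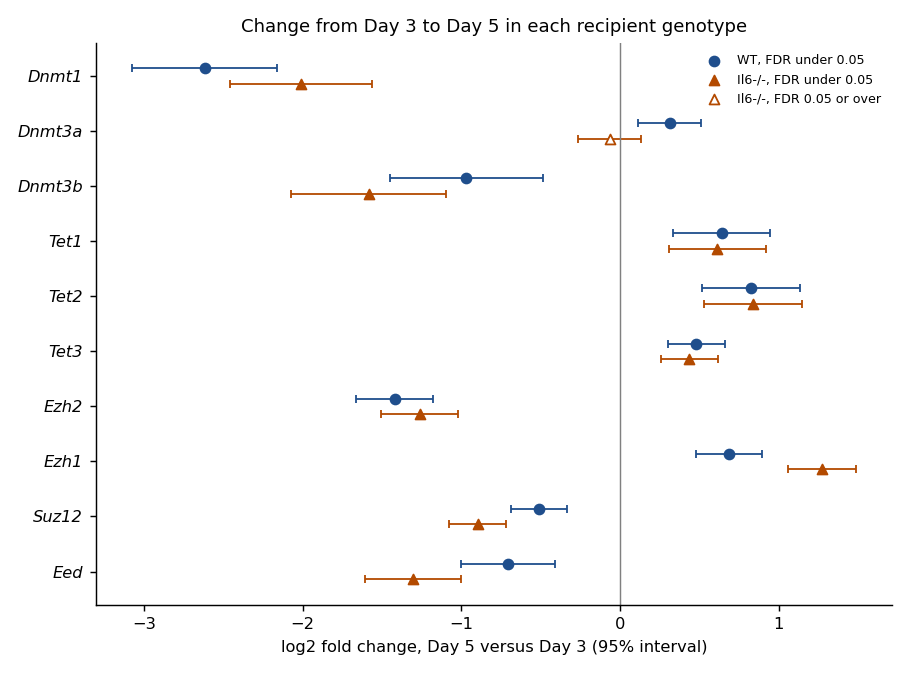
Log2 fold change from Day 3 to Day 5 of each of the 10 genes (horizontal axis) in WT (circles) and Il6-/- recipients (triangles), with 95% intervals from the edgeR fit, filled where the FDR is under 0.05. Dnmt1 has the largest decrease in both genotypes (−2.62 and −2.01), Ezh1 in Il6-/- recipients the largest increase (1.28), and the open triangle is Dnmt3a.

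Within PRC2, the catalytic subunits moved in opposite directions. Ezh2 (chromosome 6, 47507073 to 47572331, minus strand) was at 296, 281 and 311 CPM in WT and at 287, 312 and 301 CPM in Il6-/- recipients on Day 3. Ezh2 on Day 5 was at 89.4, 112 and 130.5 CPM in WT and at 115, 138.5 and 122.5 CPM in Il6-/-. The 2 genotypes overlapped on each day, and the days stood well apart. Ezh2 was 2.68-fold lower on Day 5 in WT (log2FC −1.42, SE 0.11, FDR = 1.1e-07) and 2.40-fold lower in Il6-/- recipients (log2FC −1.26, SE 0.11, FDR = 2.4e-07). Between recipients the log2FC was 0.02 on Day 3 (95% interval −0.22 to 0.26, FDR = 0.94) and 0.18 on Day 5 (95% interval −0.06 to 0.42, FDR = 0.42).

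Ezh1 (chromosome 11, 101081934 to 101117315, minus strand) was the only gene of the 10 whose recipient difference changed between the days at an FDR of 0.05. On Day 3 it was at 56.6, 68.7 and 56.1 CPM in WT and at 38.65, 38.1 and 44.55 CPM in Il6-/- recipients. Ezh1 on Day 5 was at 99.5, 99.7 and 93.15 CPM in WT and at 104, 101 and 89.0 CPM in Il6-/-. All Day 3 libraries of Il6-/- recipients lay below those of WT, and on Day 5 the genotypes were mixed. Ezh1 was 1.49-fold lower in Il6-/- on Day 3 (log2FC −0.58, SE 0.10, FDR = 0.0014), and this passed without any one of the 12 libraries (FDR at most 0.011). On Day 5 the log2FC was 0.01 (95% interval −0.20 to 0.21, FDR = 0.98). The rise from Day 3 to Day 5 was 1.61-fold in WT (log2FC 0.69, SE 0.10, FDR = 2.7e-05) and 2.42-fold in Il6-/- recipients (log2FC 1.28, SE 0.10, FDR = 6.5e-08). The interaction was 0.59 (SE 0.14, FDR = 0.029), where 4.92% of all genes passed, 1.80% upward, 3.12% downward and 1.38% with 2-fold required. It missed the threshold, with an FDR of 0.054 to 0.086, without WT Day 3 replicate 2, WT Day 5 replicate 1 or 2, or Il6-/- Day 3 replicate 1 or 2. Exons of Ezh1 share 8.80% of their bases with Cntnap1 on the other strand, which had at most 44 reads in any library, while Ezh1 had 719 to 1981.

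Relative to each other per kb, the ratio of Ezh2 to Ezh1 on Day 3 was 6.62, 5.19 and 7.03 in WT and 9.41, 10.4 and 8.57 in Il6-/-. On Day 5 the ratio was 1.14, 1.42 and 1.775 in WT and 1.40, 1.73 and 1.74 in Il6-/-. The ratio was higher in every Il6-/- library on Day 3, far lower in every library on Day 5, and mixed between genotypes on Day 5. The exact two-sided permutation test of the log2 ratio gave p = 0.1, its smallest value, for the genotypes on Day 3 and for the days in each genotype, and p = 0.7 for the genotypes on Day 5.

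**Figure D3:**
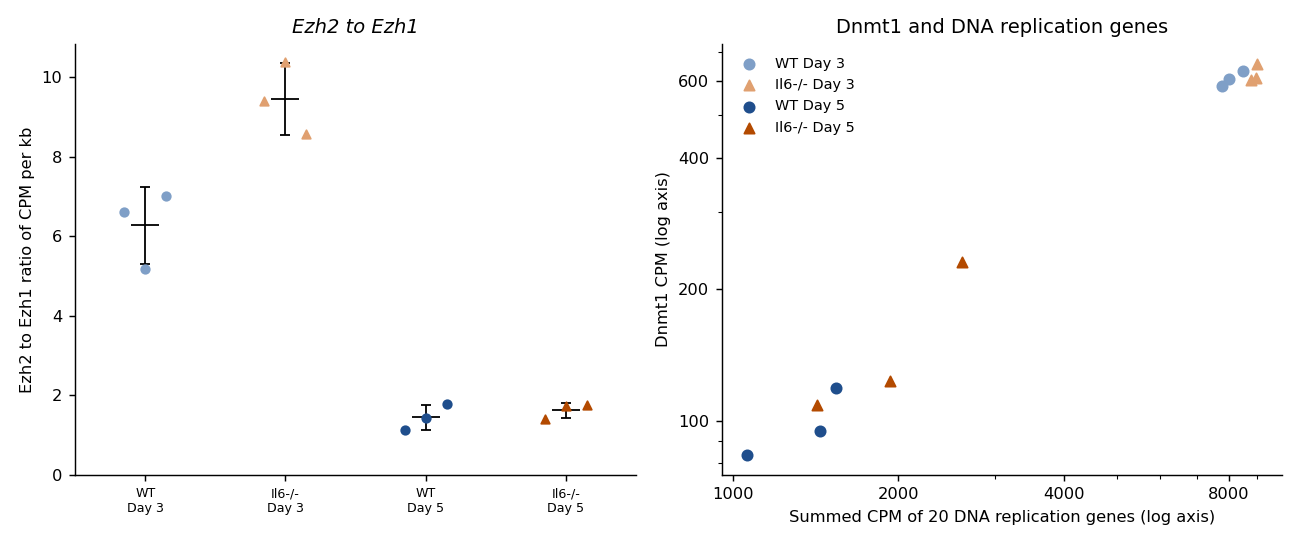
Left, the ratio of Ezh2 to Ezh1 (CPM per kb, axis from 0) in each library by group, with black bars for the mean ± SD of 3 replicates. Right, Dnmt1 CPM against the summed CPM of 20 DNA replication genes in each library, both on log axes. The ratio falls from a mean of 6.28 (WT) and 9.45 (Il6-/-) on Day 3 to 1.45 and 1.63 on Day 5, and the Day 5 library with the highest Dnmt1 also has the highest replication sum (2612 CPM).

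The non-catalytic subunits fell with Ezh2. Eed (chromosome 7, 89603862 to 89630217, minus strand), which binds methylated H3K27, was at 97.7, 71.3 and 77.2 CPM in WT and at 102.5, 106 and 110 CPM in Il6-/- recipients on Day 3. On Day 5 it was at 50.3, 61.3 and 39.5 CPM in WT and at 41.1, 41.8 and 46.0 CPM in Il6-/-. Il6-/- libraries were higher on Day 3 without overlap and lay within the WT range on Day 5. Eed was 1.63-fold lower on Day 5 in WT (log2FC −0.71, SE 0.14, FDR = 0.00051) and 2.47-fold lower in Il6-/- recipients (log2FC −1.31, SE 0.14, FDR = 1.4e-06). Neither the Day 3 difference between recipients (log2FC 0.37, SE 0.14, FDR = 0.090) nor the interaction (−0.60, SE 0.20, FDR = 0.095) passed. Of its exon bases, 9.21% are shared with E230029C05Rik, which had at most 2 reads.

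Suz12, which holds the complex together (chromosome 11, 79883891 to 79925421, plus strand), was at 60.3, 58.6 and 57.5 CPM in WT and at 64.8, 71.9 and 75.4 CPM in Il6-/- recipients on Day 3. On Day 5 it was at 39.9, 41.1 and 42.8 CPM in WT and at 36.8, 37.3 and 40.0 CPM in Il6-/-. The Il6-/- libraries were all higher on Day 3 and overlapped with WT on Day 5. Suz12 fell in WT (log2FC −0.51, SE 0.08, FDR = 0.00010) and in Il6-/- recipients (log2FC −0.90, SE 0.08, FDR = 3.5e-07). It was 1.20-fold higher in Il6-/- on Day 3 (log2FC 0.27, SE 0.08, FDR = 0.044), and this call was close to the threshold. It was lost, with an FDR of up to 0.16, without any of the WT Day 3 libraries, replicate 2 or 3 of Il6-/- Day 3, or replicate 2 of either Day 5 group. The interaction was −0.39 (SE 0.12, FDR = 0.074). The ratio of Ezh2 to Suz12 per kb went from 5.21 ± 0.336 to 2.76 ± 0.421 in WT and from 4.40 ± 0.237 to 3.41 ± 0.374 in Il6-/- recipients.

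**Figure D4:**
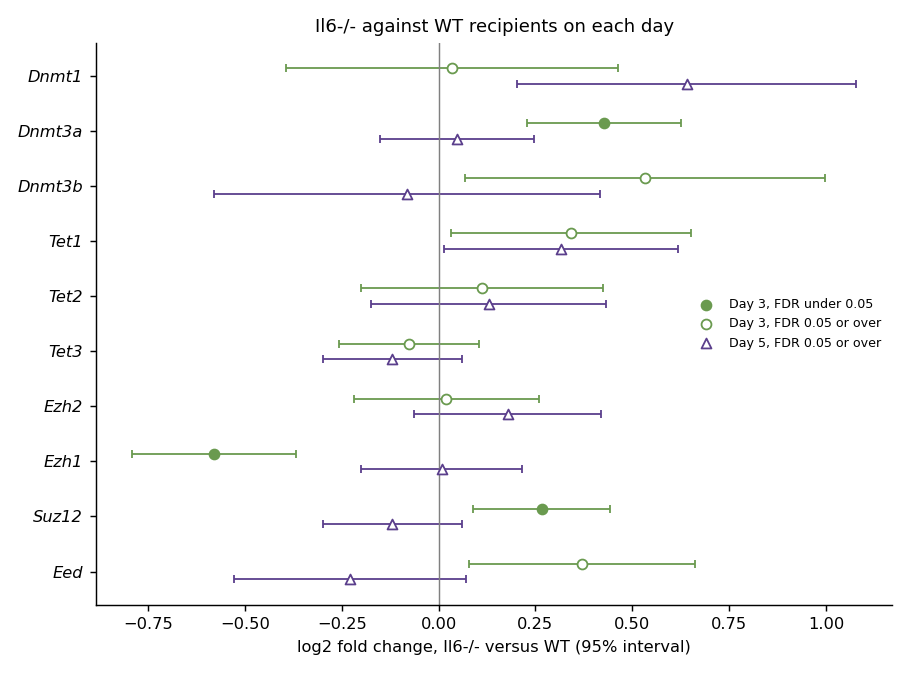
Log2 fold change of Il6-/- against WT recipients for each of the 10 genes (horizontal axis) on Day 3 (circles) and Day 5 (triangles), with 95% intervals from the edgeR fit, filled where the FDR is under 0.05. The filled points are Dnmt3a (0.43), Ezh1 (−0.58) and Suz12 (0.27) on Day 3, and no Day 5 point is filled.

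The falls of Dnmt1, Dnmt3b, Ezh2, Suz12 and Eed stood beside a fall of cell cycle genes. The summed level of 20 DNA replication genes went from 8097 ± 365 to 1345 ± 252 CPM in WT and from 8906 ± 126 to 1988 ± 597 CPM in Il6-/- recipients (SD, n = 3). A sum over 20 mitosis genes went from 6792 ± 355 to 844 ± 275 CPM in WT and from 6593 ± 151 to 1369 ± 580 CPM in Il6-/- recipients. All 20 genes of each list passed as lower on Day 5 in both genotypes, beside 27.1% of all genes in WT and 30.1% in Il6-/- recipients. The medians were −2.54 and −2.16 for replication and −2.94 and −2.24 for mitosis. Among the Day 5 libraries, replicate 2 of the Il6-/- group had the highest Dnmt1 (231 CPM), the highest replication sum (2612 CPM) and the highest mitosis sum (1970 CPM), and replicate 1 of the WT group had the lowest Dnmt1 (83.3 CPM) and the lowest sums (1060 and 526.5 CPM). Between the recipients on Day 5, where the log2FC of Dnmt1 was 0.64, 19 of the 20 replication genes had values above 0 (median 0.578). Of the 20, 3 passed as higher in Il6-/-, as did 1.27% of all genes. These were Pola1, Cdc6 and Rfc3 (log2FC 0.89, 1.11 and 0.55, FDR = 0.018, 0.021 and 0.034), named after their values were seen. All 20 mitosis genes had values above 0 (median 0.711), and 0 of them passed. Over all genes tested, 7011 of 13570 had values above 0, and the median was 0.0107. The summed levels of both lists overlapped between the recipients on Day 5. The part of cell cycle differences in the Day 5 values of Dnmt1 was not tested.

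For the 5 genes whose group means spanned at least 1 on the log2 scale, the genes of most similar course were found by the root mean square (RMS) difference of log2 CPM over the 12 libraries, each gene centred on its own mean. Those closest to Dnmt1 were Mcm7, Mcm2 and Mcm4 (RMS 0.108, 0.112 and 0.132), subunits of the replicative helicase. For Ezh2 they were Pmf1, Dek and Haus4 (0.0818, 0.0847 and 0.0936), of which Pmf1 and Haus4 encode parts of the kinetochore and the mitotic spindle. Eed was followed most closely by Set, Trim28 and Minpp1 (0.127, 0.130 and 0.130) and Dnmt3b, less closely, by Atic, Nolc1 and Cdv3 (0.234, 0.241 and 0.242). Atic acts in purine synthesis and Nolc1 in the nucleolus. For Ezh1 they were Tlr1, Dennd1c and Gimap3 (0.0586, 0.0770 and 0.0780), of which Gimap3 belongs to a family of lymphocyte GTPases. These are descriptions over libraries that fall into separate days, so a likeness includes the difference between the days.

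The sequence around the start sites of the 10 genes was searched for motifs of cell cycle genes, a choice made after the values were seen. The windows were those of RefSeq, 250 bases before to 50 after each start, and 14 windows covered the 10 genes. E2F factors, which drive genes of the entry into S phase, bind short sites, searched here on both strands as TTTCCCGC, TTTCGCGC, TTTGCCGC and TTTGGCGC. Such a match was found in 2.26% of all 32851 windows, in 8 of the 18 windows of replication genes and in 1 of the 16 of mitosis genes. Of the 14 windows, 3 held a match, and these belonged to Dnmt1, Ezh2 and Suz12, all lower on Day 5. The 4 matches are shown in capitals in 30 bases of GRCm39, 5′ to 3′ on the strand of the gene, where GCGCGAAA is the reverse complement of TTTCGCGC.
Ezh2, chr6:47571943-47571972, minus strand: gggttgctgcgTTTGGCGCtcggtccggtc
Dnmt1, chr9:20864120-20864149, minus strand: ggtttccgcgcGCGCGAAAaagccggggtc
Dnmt1, chr9:20863870-20863899, minus strand: gcgcggggcagcgTTTGGCGCgggctgtgc
Suz12, chr11:79883702-79883731, plus strand: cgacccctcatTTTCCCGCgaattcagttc
In the GENCODE annotation, the Ezh2 stretch and the first of Dnmt1 lie in the 5′ untranslated region of the canonical transcript, the second of Dnmt1 in an intron, and that of Suz12 upstream of every annotated transcript. The windows of Dnmt3b, Eed, Ezh1, Dnmt3a and the Tet genes held no match. The CHR motif of mitotic genes (TTTGAA, both strands) was in 4 of the 14 windows, those of Dnmt1, Dnmt3b, Eed and Suz12, against 17.9% of all windows, and CCAAT, the motif of NF-Y, in 6 of the 14 against 37.4%. The shares over all windows come from genes of every kind and were not matched for CpG content or expression. A match describes letters and not binding.

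The other genes of the same pathways were read from 4 lists, against a share of all genes called between the days of 56.7% in WT and 60.5% in Il6-/- recipients and a median log2FC over all genes of 0.0908 and 0.0872. Of 25 partners of DNA methylation 22 were tested, and 18 of them passed between the days in WT (11 higher, 7 lower on Day 5) and 16 in Il6-/- recipients (7 higher, 9 lower), with median log2FC of 0.181 and 0.0766. Uhrf1, which brings DNMT1 to hemimethylated DNA, fell from 562 ± 33.7 to 54.0 ± 18.1 CPM in WT (log2FC −3.38, SE 0.29, FDR = 1.8e-07) and from 585 ± 14.01 to 103 ± 47.6 CPM in Il6-/- recipients (log2FC −2.505, SE 0.28, FDR = 1.7e-06). Hells and Cdca7, a chromatin remodeler and its activator that are needed for the methylation of repeats, fell in both genotypes, with log2FC of −2.75 and −2.56 in WT and −2.59 and −2.33 in Il6-/- recipients (FDR at most 6.3e-08). The glycosylases Mbd4 and Tdg, which excise bases at CpG sites, fell as well, with log2FC of −1.48 in WT and −1.52 in Il6-/- for Mbd4 and of −1.13 and −1.23 for Tdg (FDR at most 3.3e-07). Tdg shares 57.1% of its exon bases with Glt8d2. Zbtb4, which binds methylated DNA, rose from 2.45 ± 0.465 to 21.7 ± 4.08 CPM in WT (log2FC 3.15, SE 0.26, FDR = 1.4e-07) and from 2.61 ± 0.798 to 16.5 ± 4.29 CPM in Il6-/- recipients (log2FC 2.65, SE 0.26, FDR = 5.0e-07).

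Of 11 accessory genes of PRC2, 9 were tested, and 3 rose and 4 fell in each genotype, with median log2FC of −0.0353 in WT and −0.171 in Il6-/- recipients. Phf19 and Phf1, alternative subunits of one form of the complex, moved in opposite directions. Phf19 fell from 33.2 ± 1.33 to 4.21 ± 1.74 CPM in WT (log2FC −2.97, FDR = 6.1e-08) and from 40.3 ± 3.75 to 7.02 ± 1.32 CPM in Il6-/- recipients (log2FC −2.52, FDR = 1.2e-07), whereas Phf1 rose by 1.87 and 2.29 on the log2 scale (FDR at most 4.4e-07). Phf1 shares 38.6% of its exon bases with Cuta. Rbbp7, a histone-binding subunit, fell as well, with log2FC of −1.35 in WT and −1.27 in Il6-/- recipients (FDR at most 3.4e-08). Jarid2 rose in both, with log2FC of 0.83 in WT (SE 0.09, FDR = 2.6e-06) and 1.07 in Il6-/- recipients (SE 0.09, FDR = 1.9e-07).

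All 24 genes of Polycomb repressive complex 1 (PRC1), which ubiquitinates histone H2A, were tested. In WT recipients 9 rose and 2 fell, and in Il6-/- recipients 6 rose and 7 fell, with median log2FC of 0.344 and 0.0796. The difference between these counts was not tested. Cbx2 was the one gene past 2-fold in WT (log2FC −1.003, SE 0.16, FDR = 6.8e-05), and Pcgf6, Cbx2 and Scml2 were those past 2-fold in Il6-/- recipients, with Scml2 at 0 to 29 reads. Of 19 genes listed as opposing H3K27 methylation 18 were tested. On Day 5, 9 of them were higher and 6 lower in WT and 10 higher and 6 lower in Il6-/- recipients. The median log2FC were 0.228 and 0.361. The list was broad, and not all of its genes act on H3K27 itself. It held Kmt5a, a methyltransferase of histone H4, as well as Bap1, Asxl2, Foxk2 and Hcfc1, and these values include them. Kdm6b, a demethylase of H3K27, rose from 31.2 ± 2.23 to 89.6 ± 8.12 CPM in WT (log2FC 1.52, SE 0.14, FDR = 4.1e-07) and from 34.2 ± 4.39 to 76.9 ± 16.4 CPM in Il6-/- recipients (log2FC 1.17, SE 0.14, FDR = 4.3e-06). Kmt2a, a methyltransferase of H3 lysine 4, rose in WT (log2FC 1.09, SE 0.10, FDR = 2.3e-07) and in Il6-/- recipients (log2FC 0.97, SE 0.10, FDR = 5.1e-07). Kmt5a, Hcfc1 and Paxip1 fell in both, with log2FC of −1.21, −1.185 and −1.48 in WT and −1.065, −0.96 and −1.57 in Il6-/- recipients (FDR at most 1.4e-06).

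Between the recipients on Day 3, 6 of the 73 genes tested of the 4 lists passed, beside 13.7% of all genes (7.52% higher). All 6 were higher in Il6-/- and none by 2-fold. Among the methylation partners they were Usp7 (log2FC 0.27), Ogt (0.33) and Mbd3 (0.46), and in PRC1 Pcgf5 (0.46) and Kdm2b (0.36). From the list of genes named as opposing H3K27 methylation it was Foxk2 (0.58). The FDR values were 0.0032 to 0.028. Among those that passed on Day 5, when 4.61% of all genes did, Mbd3 (−0.67), Epop (−1.56), Pcgf6 (−1.28) and Bmi1 (−0.78) were lower in Il6-/- and Hcfc1 (0.37) was higher, with FDR values of 0.0039 to 0.043. Leaving out each of the 12 libraries in turn, Pcgf5 passed on Day 3 in all 12, Foxk2 in 10, Mbd3, Kdm2b and Ogt in 8 and Usp7 in 6, and on Day 5 Bmi1, Pcgf6 and Epop passed in all 12, Mbd3 in 11 and Hcfc1 in 4. The genes under 2-fold were named here after their values were seen.

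The recipient difference changed between the days for 5 of the 73 genes of the 4 lists, all of them relatively lower in Il6-/- on Day 5, where 4.92% of all genes passed and 3.12% in that direction. Mbd3, a subunit of the NuRD complex, went from 101 ± 19.1 to 78.3 ± 12.4 CPM in WT and from 139 ± 10.4 to 49.05 ± 3.435 CPM in Il6-/- recipients. It was higher in all Il6-/- libraries on Day 3 and lower in all of them on Day 5, and its interaction was −1.14 (SE 0.19, FDR = 0.0053). Epop, a PRC2-associated factor, was at 7.73 ± 1.73 and 11.6 ± 1.07 CPM on Day 3 and at 3.67 ± 0.900 and 1.24 ± 0.273 CPM on Day 5 in WT and Il6-/- recipients. It had 18 to 25 reads in the Il6-/- Day 5 libraries, and its interaction was −2.145 (SE 0.36, FDR = 0.0055). The PRC1 genes Pcgf5 and Pcgf6, which define alternative forms of the complex, had interactions of −0.72 (SE 0.13, FDR = 0.0088) and −1.57 (SE 0.29, FDR = 0.0094). Pcgf6 fell from 25.6 ± 1.73 to 7.67 ± 0.923 CPM in Il6-/- recipients and was at 20.9 ± 4.98 and 18.7 ± 5.28 CPM in WT. Trim28, a corepressor that silences repeats, had an interaction of −0.74 (SE 0.16, FDR = 0.019), which missed the threshold without WT Day 3 replicate 2 or 3, WT Day 5 replicate 2, or Il6-/- Day 3 replicate 1 or 2 (FDR up to 0.062). Its exons share 67.8% of their bases with Chmp2a and those of Mbd3 10.6% with Gm30823. In the interaction, 19 of the 20 replication genes and all 20 mitosis genes had values above 0, with medians of 0.398 and 0.810. Of either list 0 genes passed, and over all genes tested 6852 of 13570 had values above 0.

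**Figure D5:**
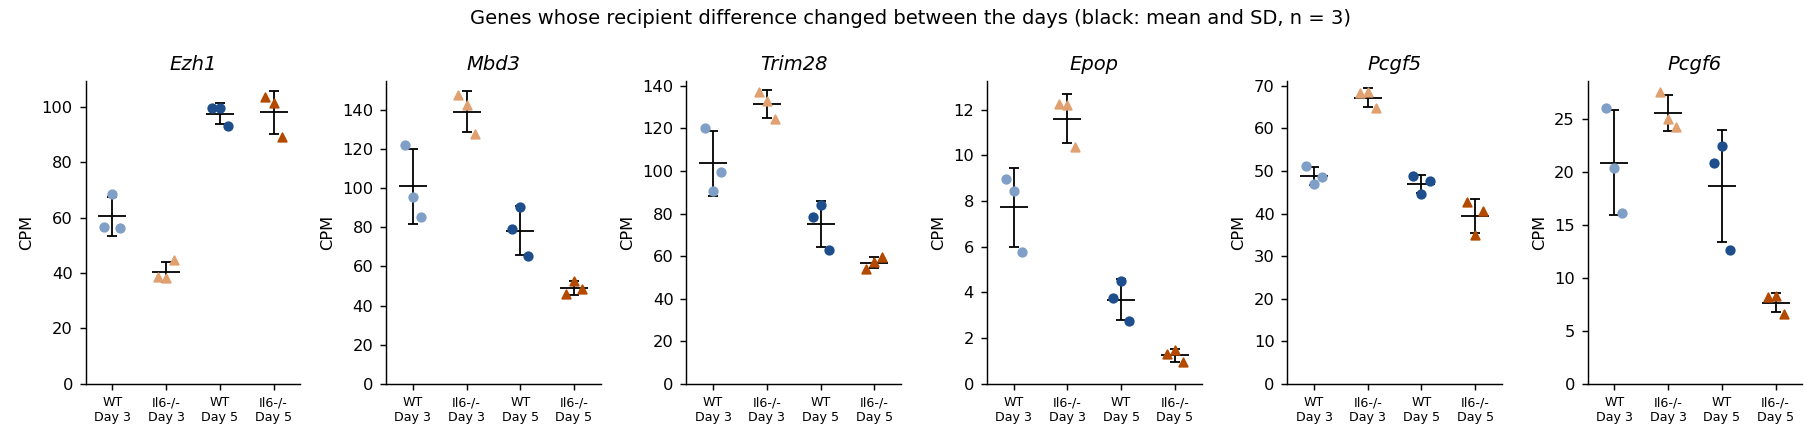
CPM (axes from 0) in each library of the 6 genes of these pathways whose recipient difference changed between the days at an FDR of 0.05, by group, with black bars for the mean ± SD of 3 replicates. Ezh1 is lower in Il6-/- recipients on Day 3 only, whereas Mbd3, Trim28, Epop, Pcgf5 and Pcgf6 have higher means in Il6-/- on Day 3 and lower means on Day 5.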

How the data were processed

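RNA of sorted OTII cells was extracted with a single cell RNA kit and made into ultra-low input polyA libraries. Reads were trimmed with Trim Galore 0.4.4, with paired-end and Nextera options although the reads are single-end, aligned to GRCm39 with STAR 2.5.2a and counted per gene without strand with HTSeq 0.6.1p1. The authors deposited raw read counts per gene for each of the 12 libraries and a table of log2 CPM for 11258 genes. That log2 table could be recomputed from the deposited counts and served as an alternative input for limma-trend.

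From the counts, genes with low counts were removed by filterByExpr over the 4 groups, leaving 13570 of 40840. Libraries were scaled by TMM (factors 0.944 to 1.06) and fitted in edgeR 4.0.16 (R 4.3.3) with 1 coefficient per group and no other term, and a gene was called at an FDR under 0.05. A share of reads based on no count can reach at most 1.15e-05% to 1.86e-05% of a library (3 counts, counting error only). Replicates differed beyond sampling noise in every pair. Exact permutation tests were two-sided over 20 labelings. Alternatives used limma 3.58.1 and DESeq2 1.42.0, other scalings and filters, a GC-content offset, a replicate block and the removal of each library. The script was tested on simulated data, where recovery was required only of changes of 4-fold or more.

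Same-numbered Day 5 libraries of the 2 genotypes deviated together (correlations 0.243, 0.206 and 0.129), and those of Day 3 did not (0.0333, 0.0599 and 0.0325). In the alternative fits with a block within each day, the numbers were taken to pair libraries, from the data and not from any label. That block covered the Day 3 libraries as well, and the main fit held no pairing. Exon lengths and overlaps came from GENCODE vM39, in which 32651 of the 40840 symbols were found. Start-site windows came from RefSeq (GRCm38.p6), matched exactly to GRCm39.

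The members and gene lists were chosen with earlier results of these data known. Named were the 10 members, and from the pathway lists up to 5 genes per list and comparison, by p, that passed with a 2-fold change or passed in the interaction. The 3 closest genes were named for members whose group means spanned at least 1 on the log2 scale. Some genes of the lists are not reported here.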

Additional observations from a re-analysis of the deposited data

Results flagged for a closer look

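The difference between Il6-/- and WT recipients was itself different on Day 5 and on Day 3 for 6 of the genes described. This was read from the interaction term of the edgeR fit, where 4.92% of all genes tested passed, 1.8% upward and 3.12% downward. Among the genes tested, 2 of 22 methylation partners, 1 of 9 accessory genes of PRC2 and 2 of 24 PRC1 genes passed. Of the genes listed as opposing H3K27 methylation, 0 of 18 passed. Whether these shares exceed that of all genes was not tested. Ezh1 was the one gene of the 10 enzymes and subunits, with a change of 0.5868 on the log2 scale (FDR = 0.029). The other 5 changed in the opposite direction, Mbd3 by −1.136 (FDR = 0.0053), Trim28 by −0.7419 (FDR = 0.019), Epop by −2.145 (FDR = 0.0055), Pcgf5 by −0.7154 (FDR = 0.0088) and Pcgf6 by −1.57 (FDR = 0.0094). The values of Mbd3, Epop, Pcgf5 and Pcgf6 passed in every alternative fit and without any single library, while those of Ezh1 and Trim28 each missed the threshold without any one of 5 libraries. Groups of 3 libraries were too small to test for single outlying samples.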

How the results depend on the processing

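Of 1200 recomputed values of the 10 genes, 1126 kept their direction and their side of the threshold, 18 lost the call, 22 gained it and 34 changed sign, none of the last called in either fit. The number of the 10 genes called on Day 3 between the genotypes was 3, against 5 with only the 6 libraries of the comparison and 0 with a 2-fold change required. On Day 5 it was 0, against 1 (Dnmt1) without a filter on low counts (log2FC 0.65, FDR = 2.2e-10, edgeR), 1 with the replicate block within each day, 1 with the block and a GC-content offset, and 0 to 1 in the fits that left out 1 library. The Dnmt1 libraries of the genotypes overlapped on that day in spite of the low FDR without the filter. Between the days, requiring 2-fold left 2 of 10 calls in WT and 5 of 9 in Il6-/- recipients. The interaction count was 1, against 3 without the filter, 3 with the replicate block (Dnmt1, Dnmt3a and Ezh1), 4 with the block and the offset, 2 in DESeq2, 0 with 2-fold required and 0 to 2 with 1 library left out. Over all genes, the calls on Day 3 between the genotypes were 1861 of 13570. They were 2738 of 12289 with only the 6 libraries, and 372 of 13570 with 2-fold required. The block moved the calls over all genes from 626 to 1592 on Day 5 and from 668 to 1564 in the interaction. They were 1397 and 1300 without the filter, 1127 and 1136 in DESeq2, and 359 on Day 5 with 6 libraries. Apart from the calls named here and in the report, the block within each day ended no call of the 10 genes. The causes were not tested.

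The Suz12 call on Day 3 was lost under 5 of 13 other settings, with an FDR of 0.097 under upper-quartile scaling, 0.12 without scaling, 0.16 without the filter, 0.084 with the GC offset and 0.070 with block and offset. Upper-quartile scaling moved the median of all genes between the days to 0.287 in WT and 0.315 in Il6-/-, and no scaling to 0.142 and 0.238, and to 0.104 in the interaction. The mean log2 difference of Dnmt1 between the days in WT was −2.44 under upper-quartile scaling, against −2.63. Signs changed under upper-quartile scaling for Dnmt1 (−0.003878) and Ezh2 (−0.01886) on Day 3, Dnmt3a between the days in Il6-/- (0.1636) and Tet1 in the interaction (0.007438). Without scaling they changed for the same genes (−0.01983, −0.03458, 0.08515 and 0.07338) and for Tet3 in the interaction (0.05608). The GC offset turned Tet1 in the interaction (0.005635), the 6 libraries alone Ezh2 on Day 3 (−0.008111) and Ezh1 on Day 5 (−0.002202), and limma-trend Ezh1 on Day 5 (−0.0006556). With 1 library left out, values ranged from −0.005481 to 0.06596 for Dnmt1 and −0.0151 to 0.05885 for Ezh2 on Day 3, from −0.3046 to 0.09399 for Dnmt3b and −0.03377 to 0.07384 for Ezh1 on Day 5, from −0.1473 to 0.03211 for Dnmt3a between the days in Il6-/-, and in the interaction from −0.1135 to 0.09992 for Tet1, −0.1009 to 0.1857 for Tet2 and −0.1135 to 0.008563 for Tet3.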
